A study of Mus musculus with 6 samples.

Results

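The Foxo transcription factor genes Foxo1, Foxo3 and Foxo4 and 7 genes linked to Foxo-driven cell cycle arrest and quiescence (Cdkn1a, Cdkn1b, Ccng2, Sesn1, Bcl6, Txnip and Klf2) were followed in long-term (LT) chronic myelogenous leukaemia (CML) stem cells with and without the lysophospholipase D gene Gdpd3. The 10 genes were chosen by name from the 36976 genes of the expression table, and each name matched a single row. The study compares gene expression in the most primitive CML stem cells between the Gdpd3 genotypes. RNA was sequenced from 6 libraries of sorted LT-CML stem cells, 3 of Gdpd3+/+ mice (replicates 1, 2 and 3) and 3 of Gdpd3-/- mice (replicates 5, 6 and 7). All mice were tet-CML mice, C57BL/6 double transgenics (SCL-tTA and TRE-BCR-ABL1) that were kept on doxycycline until 5 weeks after birth. Taking doxycycline away induced the BCR-ABL1 oncogene, and the cells were sorted from bone marrow 5 weeks later as lineage-negative, Sca-1+, Kit+, CD150+, CD48- and CD135- cells. Gdpd3 was disrupted with Cas9 near the start of its coding sequence. Several limits come with this model. The oncogene is expressed only where the SCL promoter drives the transactivator, and cells of several animals were pooled. Marrow came from more mice with Gdpd3 (males 22, females 12) but from fewer without it (males 5, females 5), so sex ratio and genotype cannot be told apart. Because of the pooling, p-values measure only the spread between these libraries.

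Foxo proteins bind DNA and switch on genes that slow the cell cycle and protect against oxidative stress. When growth factor signalling is active, AKT phosphorylates them and they leave the nucleus, so their activity is set largely at the protein level and is not read by their own RNA. Haematopoietic stem cells depend on Foxo factors, Foxo3 above all, to stay quiescent and to self-renew.

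Levels are given as FPKM, fragments per kilobase of merged exons and depth, which can be compared between genes because the value is per length. Depth, read back from the FPKM values as reads assigned to genes (in units of 1 Mread), was 49.8, 62.8 and 61.3 for the libraries with Gdpd3 (replicates 1, 2 and 3). FPKM times length moves in steps that are read as hundredths of a read, because 47.2% to 55.2% of detected genes fall on whole reads in each library and 77.4% to 82.2% on whole reads or simple fractions. The counting settings that would settle this reading are not given in the sources used here. The libraries without Gdpd3 had 21.3, 36.4 and 25.1 (replicates 5, 6 and 7), so the median Gdpd3+/+ library was 2.44 times as deep as the median Gdpd3-/- library. The lower depth leaves low values less precise in Gdpd3-/- libraries. Gdpd3 itself had 7.30, 3.29 and 2.95 FPKM with the gene intact (replicates 1, 2 and 3) and 0.110, 0.0129 and 0.681 FPKM in the knockouts (replicates 5, 6 and 7). The genotypes did not overlap, with the most remaining signal in replicate 7 (exact permutation p of 0.1, two-sided, which is as low as 3 libraries against 3 can reach). The Gdpd3 exons share 190 bases with Gm9967 on the other strand, and the strand setting of the counting is not given in the sources used here.

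Some libraries stood apart before any member was read. All 14 skeletal muscle markers were higher in every Gdpd3-/- library than in every Gdpd3+/+ library (23.5% of all genes). Muscle is no part of the sorted gate. Of these markers 0 were called (limma with Benjamini-Hochberg adjustment, 1.71% of all genes). Their summed level was 1484, 1040 and 1003 FPKM in Gdpd3+/+ replicates 1, 2 and 3 and 12886, 18466 and 2457 FPKM in Gdpd3-/- replicates 5, 6 and 7. The most abundant of them, Acta1, had 344, 238 and 232 FPKM against 2969, 4536 and 555 FPKM in the same order. Replicates 5 and 6 were thus far above the rest. All 7 neutrophil markers were lower in every Gdpd3-/- library (8.27% of all genes). Of the 7, 4 were called lower (limma with Benjamini-Hochberg adjustment, 0.616% of all genes). The sums of all 7 were 31433, 28496 and 30312 FPKM against 13415, 7799 and 8795 FPKM. S100a8, their most abundant gene, had 13261, 11686 and 12963 FPKM against 6441, 3060 and 3609 FPKM. In bulk RNA, fewer cells of a type and less RNA per cell cannot be told apart. No marker of these lists was at 0 in every library.

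The sorted identity was visible in the RNA in part. Ly6a (Sca-1), the most abundant of the 3 markers sorted as positive, had 395, 342 and 410 FPKM in Gdpd3+/+ libraries. In Gdpd3-/- replicates 5, 6 and 7 it had 563, 360 and 408 FPKM. Kit had 128, 125 and 131 against 108, 108 and 136 FPKM, and Slamf1 (CD150) 11.7, 10.1 and 10.3 against 5.41, 13.2 and 7.71 FPKM. All 3 overlapped between the genotypes, though Slamf1 lay below every Gdpd3+/+ library in replicates 5 and 7 and above in replicate 6. The markers sorted as negative were not absent from the RNA. Cd48 had 39.8, 41.2 and 44.8 FPKM in Gdpd3+/+ and 51.6, 54.0 and 92.2 FPKM in Gdpd3-/- replicates 5, 6 and 7. Flt3 (CD135) had 11.0, 10.6 and 9.80 FPKM against 46.5, 37.8 and 36.8 FPKM. Both of these 2 markers were wholly higher in Gdpd3-/- libraries (23.5% of all genes). Of the 2, 1 was called higher (limma with Benjamini-Hochberg adjustment, 1.09% of all genes). Of the lineage antibodies' 6 targets, Cd8a reached at most 0.00120 FPKM. Ly6c1, the most abundant by its mean over the libraries, had 74.5, 83.7 and 80.8 FPKM against 47.2, 60.5 and 34.2 FPKM. Itgam (Mac1) had 22.3, 20.6 and 19.3 against 13.4, 1.69 and 8.43 FPKM. Ly6g overlapped, with 44.2, 19.0 and 26.8 against 25.7, 40.6 and 23.6 FPKM. Of the 6 targets, 2 were wholly lower in Gdpd3-/- libraries (8.27% of all genes) and 0 wholly higher (23.5%).

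Against this background, Klf2, Cdkn1a, Cdkn1b and Foxo3 were higher in every Gdpd3-/- library than in every Gdpd3+/+ library, and Txnip was lower. Foxo1, Foxo4, Ccng2, Sesn1 and Bcl6 overlapped between the genotypes. None of these differences passed the test across all genes. By limma and Benjamini-Hochberg adjustment, 0 of 10 members had an adjusted p under 0.05, where 422 of 24689 genes did (1.71%; 1.09% higher and 0.616% lower in Gdpd3-/-). All 10 members passed the filter on low values, a mean of at least 0.05 FPKM.

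The 4 members above and the 1 member below stand beside 23.5% of all genes that lay wholly above and 8.27% that lay wholly below in Gdpd3-/- libraries. At an unadjusted p under 0.05 the limma test listed 5 members, 4 higher and 1 lower, where it listed 22.2% of all genes. It listed 4 members after TMM scaling (trimmed mean of M values; 19.8% of all genes) and 3 after quantile normalisation (19.3% of all genes), as Foxo3 and Cdkn1b dropped out under both and Ccng2, lower, came in under TMM scaling. Limma voom on reads recovered from the FPKM values, chosen after seeing the data, called 0 members and 3.67% of all genes. The median log2 difference of all genes was 0.24, and it was 0.05 after TMM scaling and -0.01 after quantile normalisation. The members' differences are therefore also given relative to that median. After either scaling 4 members lay wholly above and 2 wholly below, Ccng2 joining Txnip. The shares of all genes were then 14.5% above and 15.5% below after TMM scaling, and 13.6% above and 15.5% below after quantile normalisation.

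**Figure D1:**
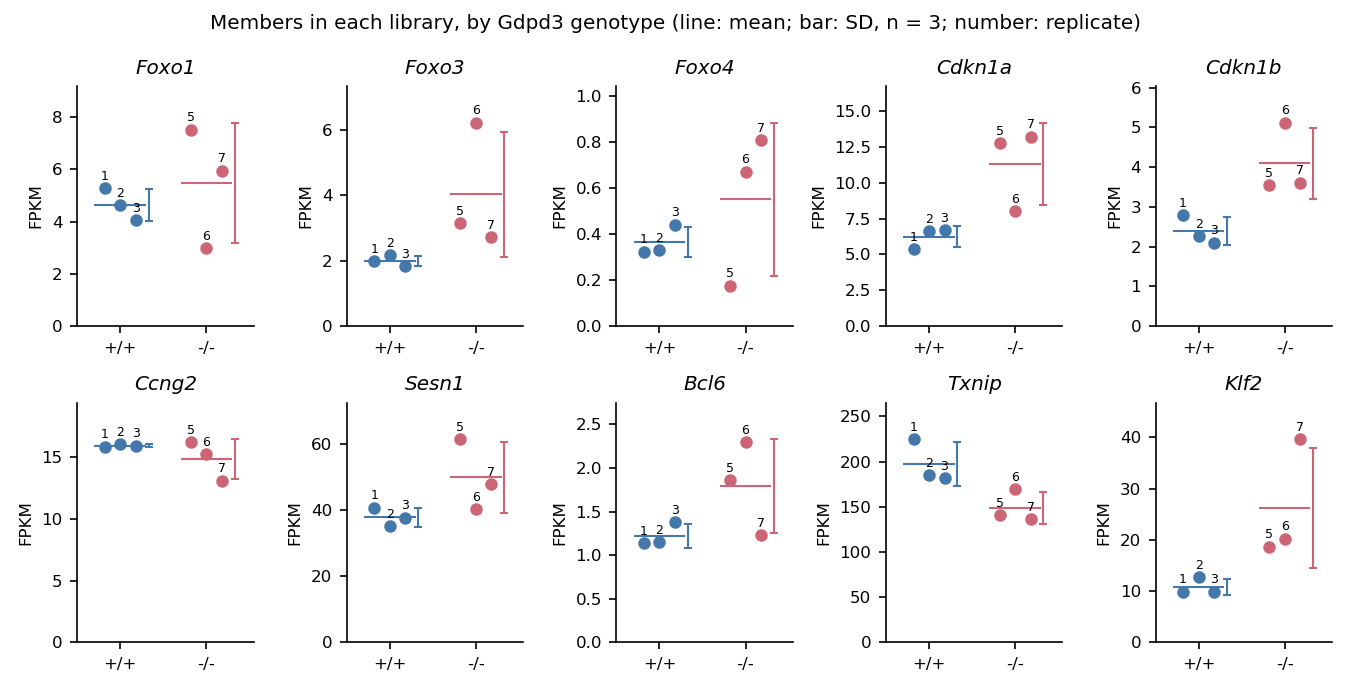
FPKM of each of the 10 genes (y axis, from 0, a scale for each gene) in the 3 Gdpd3+/+ (blue) and 3 Gdpd3-/- (red) libraries; numbers are replicates, lines are means and bars are SD (n = 3). Klf2, Cdkn1a, Cdkn1b and Foxo3 lie higher in every Gdpd3-/- library and Txnip lower, and the other 5 genes overlap.

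The members spanned a wide range of levels. In Gdpd3+/+ cells Txnip led with a mean of 197 ± 24.0 FPKM (SD, n = 3), followed by Sesn1 (37.8 ± 2.81), Ccng2 (15.9 ± 0.101), Klf2 (10.9, libraries from 9.93 to 12.7) and Cdkn1a (6.24 ± 0.753). Foxo1 (4.65 ± 0.611), Cdkn1b (2.38 ± 0.358), Foxo3 (1.99 ± 0.161), Bcl6 (1.22 ± 0.136) and Foxo4 (0.364 ± 0.0659) came after them. Only the neighbours Cdkn1b and Foxo3 overlapped between libraries in that order. In Gdpd3-/- cells Klf2 (26.2 ± 11.7 FPKM) stood above Ccng2 (14.9, libraries from 13.1 to 16.2), and the rest of the order was the same. There the libraries of neighbours overlapped between Ccng2 and Cdkn1a, between Foxo1 and Cdkn1b, and between Cdkn1b and Foxo3. The spread between libraries was wider without Gdpd3. All 10 members had a larger SD of log2(FPKM + 0.1) in Gdpd3-/- than in Gdpd3+/+ libraries, with medians of 0.415 and 0.174, as did 86.4% of all genes, with medians of 0.521 and 0.145.

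Foxo1 was the most abundant Foxo factor gene in every library but Gdpd3-/- replicate 6. Foxo1 (ENSMUSG00000044167.5, chr3:52072259-52154031 in mm9, plus strand) had 5.27, 4.62 and 4.05 FPKM in Gdpd3+/+ libraries against 7.52, 2.98 and 5.96 FPKM in Gdpd3-/- replicates 5, 6 and 7. Replicates 5 and 7 lay above and replicate 6 below all Gdpd3+/+ libraries, so the Gdpd3-/- values fell on both sides. The log2 difference was 0.14 (SE 0.35, 95% interval -0.69 to 0.98), -0.10 relative to all genes, with an adjusted p of 0.816 in limma's test with Benjamini-Hochberg adjustment. Its sign turned after TMM scaling (-0.06), after quantile normalisation (-0.04) and without Gdpd3-/- replicate 5 (-0.13). Foxo1 shares 674 exon bases with RP24-337A16.1 on the other strand, whose reads cannot be told apart where strand was not used.

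Foxo3, which encodes Foxo3a, was the only Foxo factor gene whose genotypes did not overlap. Foxo3 (ENSMUSG00000048756.4, chr10:41901647-41996561 in mm9, minus strand) had 1.97, 2.16 and 1.83 FPKM in Gdpd3+/+ and 3.13, 6.22 and 2.71 FPKM in Gdpd3-/- replicates 5, 6 and 7. All Gdpd3-/- libraries were higher, replicate 6 by far the most. The log2 difference of Foxo3 was 0.89 (SE 0.34, 95% interval 0.07 to 1.71), 0.65 relative to all genes, and the mean was 2.02 times that of Gdpd3+/+. The adjusted p from limma with Benjamini-Hochberg adjustment was 0.197, and the two-sided exact permutation test gave its smallest p of 0.1. Without Gdpd3-/- replicate 6 the log2 difference of Foxo3 was 0.53. Without replicates 5 and 6, an alternative chosen after seeing the data, it was 0.43. It was 1.02 without replicate 5 and 1.12 without replicate 7.

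Foxo4 was read at a low level, from 13 recovered reads in Gdpd3-/- replicate 5 to 94 in Gdpd3+/+ replicate 3. Foxo4 (ENSMUSG00000042903.7, chrX:98449867-98456212 in mm9, plus strand) had 0.323, 0.329 and 0.440 FPKM in Gdpd3+/+ and 0.175, 0.670 and 0.807 FPKM in Gdpd3-/- replicates 5, 6 and 7. Replicate 5 was the lowest of all 6 libraries and replicates 6 and 7 the highest. The log2 difference of Foxo4 was 0.32 (SE 0.57, 95% interval -1.05 to 1.69), 0.08 relative to all genes. The adjusted p was 0.746 from limma with Benjamini-Hochberg adjustment. After quantile normalisation the log2 difference of Foxo4 was -0.26. A single library also decides its value, 0.86 without Gdpd3-/- replicate 5 and -0.0037 without replicate 7.

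The shares of the family were most unlike those of other libraries in Gdpd3-/- replicate 6. Foxo1 made up 69.7%, 65.0% and 64.1% of the summed Foxo1, Foxo3 and Foxo4 FPKM in Gdpd3+/+ libraries against 69.4%, 30.2% and 62.9% in Gdpd3-/- replicates 5, 6 and 7. Foxo3 made up 26.0%, 30.3% and 29.0% against 28.9%, 63.0% and 28.6%. Foxo4 made up 4.27%, 4.63% and 6.96% against 1.61%, 6.78% and 8.52%, outside the Gdpd3+/+ range in replicates 5 and 7. In replicate 6 Foxo3 took the larger share. The summed level was 7.57, 7.11 and 6.33 FPKM in Gdpd3+/+ and 10.8, 9.87 and 9.47 FPKM in Gdpd3-/- libraries, which do not overlap.

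Both inhibitors of cyclin-dependent kinases among the members were higher in every Gdpd3-/- library. Cdkn1a encodes p21, which p53 and Foxo factors can both induce and which halts the cycle at the start of DNA replication. Cdkn1a (ENSMUSG00000023067.7, chr17:29227924-29237667 in mm9, plus strand) had 5.37, 6.64 and 6.71 FPKM in Gdpd3+/+ and 12.8, 8.04 and 13.2 FPKM in Gdpd3-/- replicates 5, 6 and 7. Replicate 6 lay just above the Gdpd3+/+ range and the other Gdpd3-/- libraries well above it. The log2 difference was 0.83 (SE 0.23, 95% interval 0.28 to 1.37), 0.59 relative to all genes. The adjusted p of Cdkn1a was 0.108 in limma with Benjamini-Hochberg adjustment and ranged from 0.0433 (without Gdpd3-/- replicate 6, where 1.94% of all genes were called) to 0.341 (without Gdpd3+/+ replicate 1) over 16 alternatives.

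Cdkn1b encodes p27, which restrains cyclin E and cyclin A kinases in resting cells. Cdkn1b (ENSMUSG00000003031.8, chr6:134870419-134875531 in mm9, plus strand) had 2.79, 2.26 and 2.10 FPKM in Gdpd3+/+ and 3.55, 5.12 and 3.61 FPKM in Gdpd3-/- replicates 5, 6 and 7. As for Foxo3, replicate 6 was the highest. The log2 difference of Cdkn1b was 0.75 (SE 0.24, 95% interval 0.17 to 1.33), 0.51 relative to all genes, with an adjusted p of 0.143 from limma with Benjamini-Hochberg adjustment.

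Ccng2, an atypical cyclin that is high in arrested cells, was the steadiest member in Gdpd3+/+ libraries. Ccng2 (ENSMUSG00000029385.8, chr5:93696283-93705257 in mm9, plus strand) had 15.8, 16.0 and 15.9 FPKM in Gdpd3+/+ and 16.2, 15.2 and 13.1 FPKM in Gdpd3-/- replicates 5, 6 and 7. Replicate 5 lay above the Gdpd3+/+ libraries and replicates 6 and 7 below. The log2 difference was -0.11 (SE 0.12, 95% interval -0.40 to 0.19), -0.35 relative to all genes. It was -0.32 after TMM scaling and -0.02 without Gdpd3-/- replicate 7. The adjusted p was 0.604 from limma with Benjamini-Hochberg adjustment. In that test the p of Ccng2 ranged from 0.0447 (without Gdpd3-/- replicates 5 and 6, a fit chosen after seeing the data in which 10.2% of all genes were called) to 0.906 (without Gdpd3-/- replicate 7) over 16 alternatives.

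**Figure D2:**
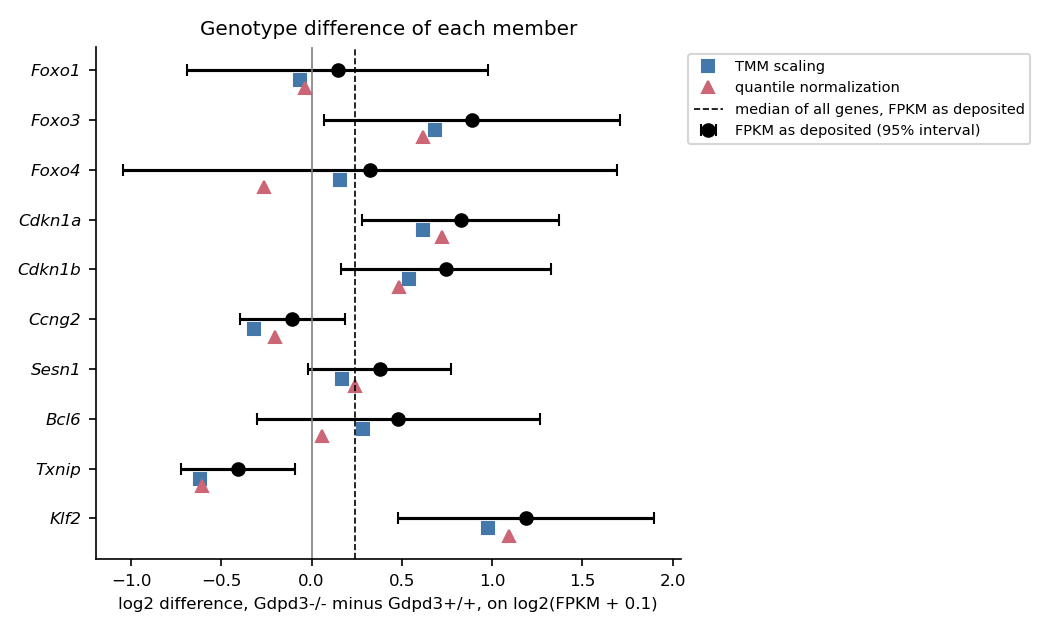
Log2 difference of each gene (x axis, Gdpd3-/- minus Gdpd3+/+, on log2(FPKM + 0.1)) with its 95% interval for FPKM as deposited, and as points without intervals after TMM scaling and quantile normalisation. For FPKM as deposited the intervals of Klf2, Cdkn1a, Cdkn1b and Foxo3 lie above 0 and that of Txnip below; Foxo1 changes sign after both scalings and Foxo4 after quantile normalisation.

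The other targets differed in direction. Sesn1 encodes a sestrin, a stress-induced protein that restrains mTORC1. Sesn1 (ENSMUSG00000038332.6, chr10:41530380-41628230 in mm9, plus strand) had 40.6, 35.0 and 37.6 FPKM in Gdpd3+/+ and 61.4, 40.3 and 47.7 FPKM in Gdpd3-/- replicates 5, 6 and 7. Only replicate 6 fell within the Gdpd3+/+ range. For Sesn1 the log2 difference was 0.38 (SE 0.17, 95% interval -0.02 to 0.77), 0.14 relative to all genes, with an adjusted p of 0.240 from limma with Benjamini-Hochberg adjustment. It was 0.17 after TMM scaling and 0.22 without Gdpd3-/- replicate 5.

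Bcl6 encodes a transcriptional repressor best known from germinal centre B cells. Bcl6 (ENSMUSG00000022508.5, chr16:23965138-23988938 in mm9, minus strand) had 1.14, 1.15 and 1.38 FPKM in Gdpd3+/+ and 1.86, 2.29 and 1.23 FPKM in Gdpd3-/- replicates 5, 6 and 7. Replicate 7 lay within the Gdpd3+/+ range and the other Gdpd3-/- libraries above it. For Bcl6 the log2 difference was 0.48 (SE 0.33, 95% interval -0.30 to 1.27), 0.24 relative to all genes. The adjusted p was 0.425 from limma with Benjamini-Hochberg adjustment. The log2 difference was 0.28 after TMM scaling and 0.06 after quantile normalisation. It was 0.29 without Gdpd3-/- replicate 6, 0.72 without replicate 7 and 0.01 without replicates 5 and 6.

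Klf2, a Krüppel-like factor that Foxo1 controls in lymphocytes, keeps T cells quiescent. With all 6 libraries it had the largest difference among the members. Without Gdpd3-/- replicate 7 that of Foxo3 was larger (1.12 against 0.85). Klf2 (ENSMUSG00000055148.7, chr8:74842932-74845555 in mm9, plus strand) had 9.94, 12.7 and 9.93 FPKM in Gdpd3+/+ and 18.7, 20.2 and 39.7 FPKM in Gdpd3-/- replicates 5, 6 and 7. Replicate 7 stood well above the other Gdpd3-/- libraries, and all 3 above every Gdpd3+/+ library. The log2 difference of Klf2 was 1.19 (SE 0.30, 95% interval 0.48 to 1.90), 0.95 relative to all genes, and the mean was 2.41 times that of Gdpd3+/+. Klf2 had an adjusted p of 0.0912 from limma with Benjamini-Hochberg adjustment. Over 16 alternatives it ranged from 0.0290 to 0.315 in that test, lowest without Gdpd3-/- replicate 7, where 14.2% of all genes were called and the log2 difference was 0.85, and highest without Gdpd3+/+ replicate 3. Without Gdpd3-/- replicates 5 and 6 the log2 difference of Klf2 was 1.87 with an adjusted p of 0.0392 from limma with Benjamini-Hochberg adjustment, and 10.2% of all genes were called.

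Txnip, which binds thioredoxin and limits glucose uptake, was the most abundant member and the only one wholly lower in Gdpd3-/- libraries. Txnip (ENSMUSG00000038393.7, chr3:96361880-96365806 in mm9, plus strand) had 225, 185 and 182 FPKM in Gdpd3+/+ and 141, 170 and 136 FPKM in Gdpd3-/- replicates 5, 6 and 7. The gap between the nearest libraries of the groups was small beside the spread within either. The log2 difference of Txnip was -0.41 (SE 0.13, 95% interval -0.72 to -0.09), -0.65 relative to all genes, with an adjusted p of 0.143 from limma with Benjamini-Hochberg adjustment. That p ranged from 0.0857 (quantile normalisation) to 0.409 (without Gdpd3+/+ replicate 1) over 16 alternatives. Txnip shares 606 exon bases with Gm15441 on the other strand.

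Promoter windows of 300 bases, 250 before and 50 after the start site, were held in RefSeq (GRCm38.p6) for 9 of 10 members, 12 windows in all. They were searched on both strands for 2 elements that Foxo factors are known to bind, GTAAACA (reverse complement TGTTTAC) and CAAAACA (reverse complement TGTTTTG). The first was in 2 of the 12 windows, in Txnip and in 1 of the windows of Sesn1, and in 3.65% of all 32851 windows. The other was in 1 of the 12 windows, in Ccng2, and in 6.28% of all windows. A match is a description of the letters and no site of binding, and a window without a match says only that these letters are not in it. The windows with a match are printed because they hold the only matches among the members. That of Klf2 is printed because its difference was the largest with all 6 libraries. Capitals mark the matched letters, and the Klf2 window holds neither element. The printed windows lie at chr3:96557707-96558006 (Txnip), chr10:41810324-41810623 (Sesn1), chr5:93267323-93267622 (Ccng2) and chr8:72318812-72319111 (Klf2) in GRCm38.p6, all on the plus strand.
Txnip: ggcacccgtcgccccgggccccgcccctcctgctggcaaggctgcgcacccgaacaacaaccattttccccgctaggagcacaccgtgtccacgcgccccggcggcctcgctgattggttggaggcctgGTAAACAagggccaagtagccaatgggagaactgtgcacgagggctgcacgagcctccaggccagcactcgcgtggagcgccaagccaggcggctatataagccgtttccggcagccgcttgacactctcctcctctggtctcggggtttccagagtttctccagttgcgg
Sesn1: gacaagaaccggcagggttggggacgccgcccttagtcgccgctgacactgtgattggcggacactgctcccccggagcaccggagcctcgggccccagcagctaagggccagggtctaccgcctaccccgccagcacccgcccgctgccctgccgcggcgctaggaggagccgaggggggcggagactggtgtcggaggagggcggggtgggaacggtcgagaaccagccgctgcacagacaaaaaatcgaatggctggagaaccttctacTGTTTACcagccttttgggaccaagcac
Ccng2: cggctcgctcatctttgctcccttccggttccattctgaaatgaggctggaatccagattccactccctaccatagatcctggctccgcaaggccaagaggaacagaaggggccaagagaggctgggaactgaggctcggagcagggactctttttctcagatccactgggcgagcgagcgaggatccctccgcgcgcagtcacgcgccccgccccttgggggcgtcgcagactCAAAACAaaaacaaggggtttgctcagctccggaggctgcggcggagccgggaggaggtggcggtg
Klf2: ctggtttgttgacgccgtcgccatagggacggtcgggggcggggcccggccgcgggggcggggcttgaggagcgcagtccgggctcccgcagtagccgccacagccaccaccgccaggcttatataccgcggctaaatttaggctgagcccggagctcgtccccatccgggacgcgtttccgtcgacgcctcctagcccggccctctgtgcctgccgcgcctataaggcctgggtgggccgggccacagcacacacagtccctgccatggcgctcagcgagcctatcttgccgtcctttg

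Txnip, with the GTAAACA letters from base 130 of its window, was wholly lower in Gdpd3-/- libraries. Sesn1, with the same element in reverse from base 273, and Ccng2, with CAAAACA from base 235, overlapped between the genotypes. Foxo3, Cdkn1a, Cdkn1b and Klf2, the members wholly higher, held neither element in their windows, and neither did Foxo1 and Bcl6, which overlapped.

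The Gdpd3-/- libraries did not carry the same members highest. Replicate 5 was above every Gdpd3+/+ library for 8 of 10 members (50.8% of all genes) and below for 2 (27.9%). Replicate 6 was above for 6 (47.5%) and below for 3 (31.4%), and replicate 7 above for 7 (53.5%) and below for 2 (18.0%). Foxo3, Cdkn1b and Bcl6 were highest in replicate 6, which also had the most skeletal muscle signal. Replicates 5 and 7 had 12886 and 2457 FPKM of the muscle markers. There Foxo3 had 3.13 and 2.71 FPKM, Cdkn1b 3.55 and 3.61 FPKM and Bcl6 1.86 and 1.23 FPKM. Klf2, Cdkn1a and Foxo4 were highest in replicate 7. Immediate early genes followed that order in part, with a summed level of 896, 1009 and 923 FPKM in Gdpd3+/+ and 1869, 1357 and 2532 FPKM in Gdpd3-/- replicates 5, 6 and 7. Cdkn1a followed the same order of Gdpd3-/- libraries as this sum. The part of muscle, neutrophil or immediate early RNA, or of cells with Flt3 or Cd48 RNA, in the members' differences was not tested.

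**Figure D3:**
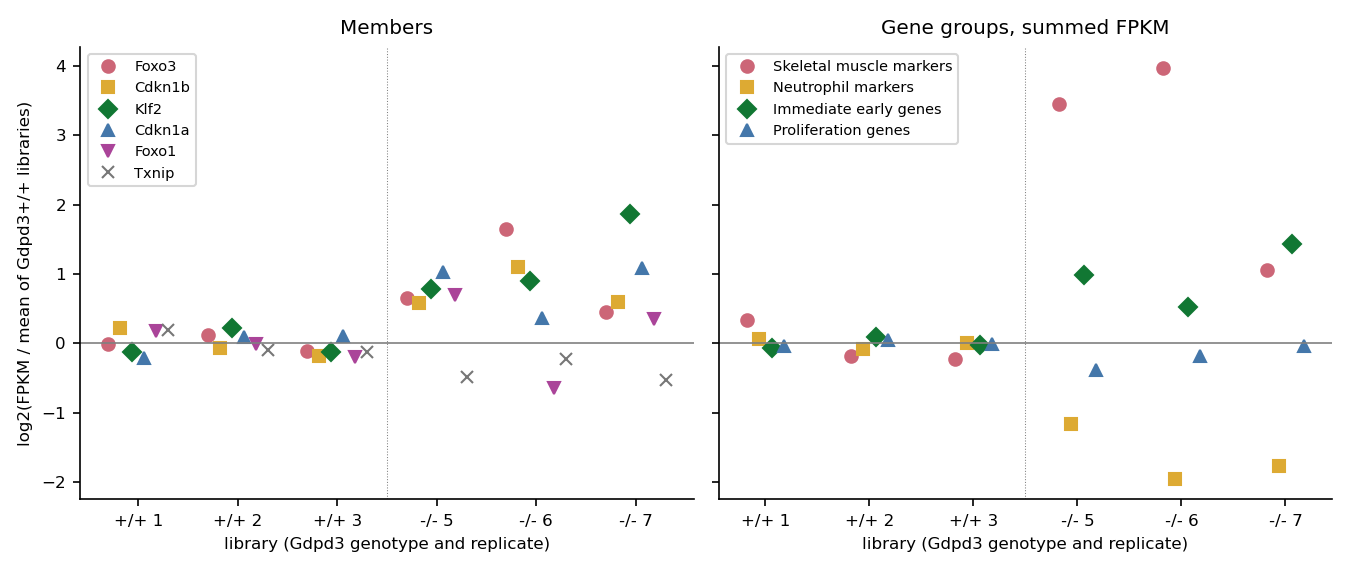
Log2 of FPKM over the mean of the 3 Gdpd3+/+ libraries (y axis) in each library (x axis), for 6 members (left) and for the summed FPKM of 4 gene groups (right). Foxo3, Cdkn1b and the skeletal muscle markers are highest in Gdpd3-/- replicate 6, and Klf2, Cdkn1a and the immediate early genes in replicate 7. Between replicates 5 and 7 the muscle markers lie far apart (3.45 and 1.06), while Foxo3 (0.66 and 0.45) and Cdkn1b (0.58 and 0.60) lie close.

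The genes around the members were read from 8 lists, 150 of whose 151 distinct genes passed the filter. Of these 150 genes, 5 had an adjusted p under 0.05 in limma with Benjamini-Hochberg adjustment, and calls in each list stand beside 1.71% of all genes. Counts of genes wholly higher or lower in a list are for FPKM as deposited and stand beside 23.5% and 8.27% of all genes (14.5% and 15.5% after TMM scaling). For the upstream regulators and partners of Foxo factors (kinases, phosphatases, adaptors and cofactors), 0 of 29 genes passed, with 8 wholly higher and 6 wholly lower in Gdpd3-/- libraries and a median log2 difference of 0.05 beside 0.24 over all genes. That median was -0.16 after TMM scaling and -0.10 after quantile normalisation. Pik3cb, a catalytic subunit of PI3K, had 6.80, 7.57 and 6.82 FPKM in Gdpd3+/+ and 0.968, 3.51 and 4.26 FPKM in Gdpd3-/- libraries. Xpo1, which exports Foxo proteins among many others from the nucleus, had 20.9, 21.0 and 19.9 against 11.0, 8.73 and 17.8 FPKM. The acetyltransferase gene Crebbp had 5.80, 5.64 and 5.05 against 9.45, 10.7 and 7.99 FPKM. This subunit and the exporter thus lay lower, and the cofactor higher, without overlap, while Pik3cd, another catalytic subunit, was wholly higher.

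Other targets of Foxo factors gave 0 of 32 calls, with 11 wholly higher, 1 wholly lower and a median of 0.37. After TMM scaling the median was 0.16, and after quantile normalisation 0.20. The list holds genes that Foxo factors repress, such as Ccnd1, beside genes they induce, so its counts and median mix both. Ccnd1 and Ccnd2, both wholly higher, are also counted among the proliferation genes below. Trim63, a ubiquitin ligase of muscle wasting, had 0.721, 0.269 and 0.390 FPKM in Gdpd3+/+ and 7.39, 7.55 and 0.980 FPKM in Gdpd3-/- replicates 5, 6 and 7, high in the same libraries as the muscle markers. The mitophagy gene Bnip3 had 24.1, 18.6 and 20.7 against 41.7, 44.7 and 25.2 FPKM. Ccnd1 (cyclin D1), which Foxo factors are known to repress, had 1.88, 2.05 and 1.91 against 3.55, 4.59 and 2.45 FPKM. Like Trim63, both were lowest of the Gdpd3-/- libraries in replicate 7. The smallest adjusted p of the list was that of its wholly lower gene, Gadd45b (0.056 from limma with Benjamini-Hochberg adjustment), and 1 target was called lower after TMM scaling.

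The CDK inhibitors and pocket proteins beyond the members gave 0 of 7 calls, all 7 overlapped, and their median was -0.19. It was -0.40 both after TMM scaling and without Gdpd3-/- replicate 5, and -0.12 without replicate 6. Among 25 proliferation genes 1 was called, 3 were wholly higher, 12 wholly lower and 10 overlapped, and the median was -0.37. After TMM scaling the median was -0.58, and without Gdpd3-/- replicate 5 it was -0.19. Cdk1, the mitotic kinase, fell from 45.7, 47.8 and 47.5 FPKM to 26.7, 27.8 and 30.9 FPKM, a log2 difference of -0.72 with an adjusted p of 0.0315 from limma with Benjamini-Hochberg adjustment (0.00853 to 0.199 over 16 alternatives, under 0.05 in 11). Top2a had 38.5, 41.2 and 42.8 against 17.5, 16.7 and 27.5 FPKM, Bub1 had 13.2, 10.6 and 11.0 against 3.66, 10.1 and 6.78 FPKM, and Ccne1 (cyclin E1) had 13.8, 11.1 and 11.8 against 9.07, 3.56 and 10.4 FPKM. The genes named are thus the lower ones, and the summed level of the list in Gdpd3-/- replicates 5, 6 and 7 was 1107, 1276 and 1415 FPKM, of which only replicate 7 was within the range of Gdpd3+/+ libraries (1410 to 1491 FPKM). After TMM scaling and after quantile normalisation 3 of the list were called, all lower. A link to Cdkn1a or Cdkn1b was not tested.

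Genes of stem cell quiescence gave 1 call of 15, with 6 wholly higher, 2 wholly lower and a median of 0.26. The median was 0.05 after TMM scaling and 0.12 after quantile normalisation. Hoxa9 rose from 16.5 ± 0.588 to 25.7 ± 1.96 FPKM (SD, n = 3), a log2 difference of 0.64 with an adjusted p of 0.0483 from limma with Benjamini-Hochberg adjustment (0.0273 to 0.247 over 16 alternatives). Hoxa9 was under 0.05 in 6 of the 16. It was not after TMM scaling or quantile normalisation, where its log2 difference was 0.43 and 0.54. Egr1 had 40.1, 46.7 and 42.2 FPKM against 58.7, 49.5 and 116 FPKM, highest in replicate 7 like Klf2, and Ctnnal1 had 4.75, 3.97 and 4.74 against 2.39, 1.83 and 3.92 FPKM. Targets of p53, which also induces Cdkn1a and Sesn1, gave 1 call of 14, with 3 wholly higher and 2 wholly lower. Their median was -0.09, but 0.03 without Gdpd3-/- replicate 5 and 0.13 without replicate 6. It was -0.26 after TMM scaling, -0.29 after quantile normalisation and -0.22 without Gdpd3-/- replicate 7. Trp53inp1 fell from 22.2 ± 1.83 to 9.15 ± 1.54 FPKM (SD, n = 3), a log2 difference of -1.28 with an adjusted p of 0.0275 from limma with Benjamini-Hochberg adjustment (0.0103 to 0.177 over 16 alternatives, under 0.05 in 11). Phlda3 went the other way, with 1.90, 2.59 and 1.95 FPKM against 6.58, 11.5 and 5.26 FPKM, and Gtse1 had 7.63, 7.64 and 8.12 against 5.45, 1.75 and 5.81 FPKM. The p53 targets among and beyond the members therefore had no common direction.

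Relatives of the members gave 0 of 29 calls, with 7 wholly higher, 6 wholly lower and a median of 0.12, which was -0.07 after TMM scaling and -0.11 after quantile normalisation. Arrdc3, an arrestin family relative of Txnip, had 10.9, 9.04 and 8.88 FPKM in Gdpd3+/+ and 3.23, 4.69 and 5.97 FPKM in Gdpd3-/- replicates 5, 6 and 7, lower as Txnip was. Klf5, a relative of Klf2, had 4.54, 3.23 and 3.98 against 2.53, 0.0160 and 2.61 FPKM. The proliferation-linked forkhead gene Foxm1 had 6.98, 6.66 and 8.31 against 5.40, 1.71 and 6.46 FPKM. The genes named have the largest differences among relatives with a mean of at least 1 FPKM and no overlap, and all are lower, while the list as a whole lay in both directions.

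Immediate early genes, which respond within minutes to growth factors and to handling of cells, gave 2 calls of 12, both higher, with 11 wholly higher and a median of 1.04, the highest of the 8 lists. Fosb rose from 2.91 ± 0.581 to 8.09 ± 1.51 FPKM (SD, n = 3), a log2 difference of 1.44 with an adjusted p of 0.0417 from limma with Benjamini-Hochberg adjustment (0.0251 to 0.236 over 16 alternatives, under 0.05 in 4). Dusp1 rose from 140 ± 9.51 to 287 ± 65.6 FPKM (SD, n = 3), a log2 difference of 1.02 with an adjusted p of 0.0469 from the same limma test with Benjamini-Hochberg adjustment (0.0128 to 0.247 over 16 alternatives, under 0.05 in 7). After TMM scaling and after quantile normalisation 0 of the 12 genes were called, while their median was 0.83 and 0.85. Nr4a1 had 4.17, 9.79 and 6.60 against 24.0, 12.5 and 27.7 FPKM, and Jun had 66.2, 69.8 and 63.0 against 150, 104 and 234 FPKM. As for Cdkn1a, both were lowest in replicate 6 among the Gdpd3-/- libraries.

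**Figure D4:**
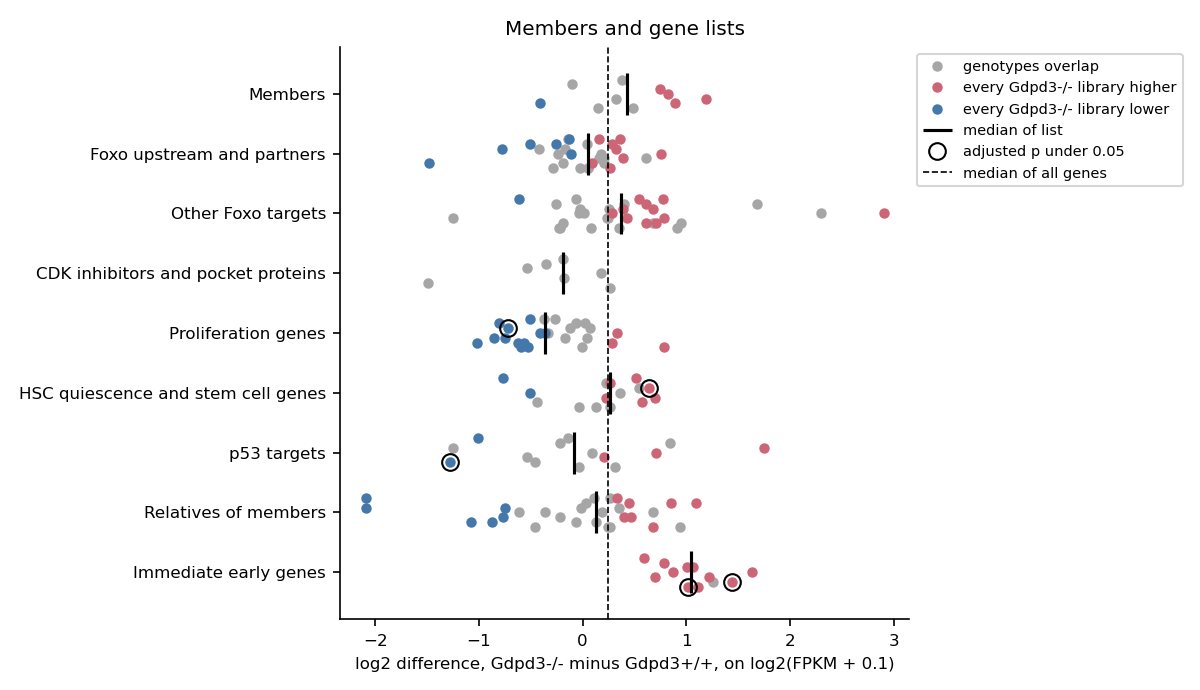
Log2 difference (x axis, Gdpd3-/- minus Gdpd3+/+, on log2(FPKM + 0.1)) of the members and of the genes of 8 lists; each point is a gene, coloured by whether the genotypes overlap, with the list's median as a bar and the median of all genes as a dashed line. With all 6 libraries the members' median is 0.43, immediate early genes lie highest (1.04) and proliferation genes lowest (-0.37). Without Gdpd3-/- replicate 5 the CDK inhibitors and pocket proteins lie below the proliferation genes (-0.40 against -0.19).

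In fits that lacked a Gdpd3+/+ library, or lacked Gdpd3-/- replicate 5, 0 of the list genes tested were called. Few genes were called in those fits at all, 0, 1 and 21 without Gdpd3+/+ replicates 1, 2 and 3 and 187 without Gdpd3-/- replicate 5. Without Gdpd3-/- replicate 6 it was 10 (1.94% of all genes were called), without replicate 7 it was 29 (14.2% of all genes), and without replicates 5 and 6 it was 25 (10.2% of all genes).

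Other marker lists were read for cells outside the gate. For 7 erythroid markers the sum was 2924, 2216 and 1871 FPKM in Gdpd3+/+ and 922, 1805 and 2788 FPKM in Gdpd3-/- replicates 5, 6 and 7, with Hba-a1 the most abundant by its mean over the 6 libraries (350 to 1312 FPKM), though below Hbb-b1 in each Gdpd3-/- library. For 5 B and plasma cell markers it was 2213, 2053 and 2671 against 974, 938 and 1770 FPKM, led by Jchain at 882 to 2551 FPKM. These sums did not overlap, and 2 of the 5 markers were wholly lower (8.27% of all genes). In Gdpd3-/- 1 of the 5 was called lower (limma with Benjamini-Hochberg adjustment, 0.616% of all genes). The 3 megakaryocyte markers summed to 179, 267 and 268 against 152, 442 and 170 FPKM and were led by Pf4 (121 to 310 FPKM). Replicate 6, where Foxo3 and Cdkn1b were highest, thus stood apart in this sum, though not for Itga2b (36.0 FPKM, within the Gdpd3+/+ range). The most abundant of the other lists were Cd68 for 3 macrophage markers (20.2 to 50.1 FPKM), Pecam1 for 4 endothelial markers (5.76 to 14.1 FPKM) and Trac for 4 T cell markers (0 to 1.15 FPKM).

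Genes whose pattern over the 6 libraries was most like that of a Foxo factor were found by the root mean square difference of log2(FPKM + 0.1), each gene centred on its own mean, among genes with a mean of at least 1 FPKM (15102 for Foxo1 and Foxo3, 15103 for Foxo4). For Foxo1 these were 1700030K09Rik (0.0573), Zfp664 (0.0803) and Prrt2 (0.0806), all lowest in Gdpd3-/- replicate 6. For Foxo3 they were St3gal3 (0.0916), Ghr (0.106) and Mrpl14 (0.108), all highest in that library. For Foxo4 they were B3gnt3 (0.147), Gm13562 (0.151) and Srebf1 (0.165), lowest in Gdpd3-/- replicate 5.

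Leaving out a single library moved the members' adjusted p in both directions. With any Gdpd3+/+ library left out, the smallest adjusted p of a member was 0.303, 0.261 and 0.315 (without replicates 1, 2 and 3; limma with Benjamini-Hochberg adjustment). With Gdpd3-/- replicate 5, 6 or 7 left out it was 0.1, 0.0433 (Cdkn1a) and 0.0290 (Klf2). No member was past 0.05 in more than 1 of these 6 fits.

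**Figure D5:**
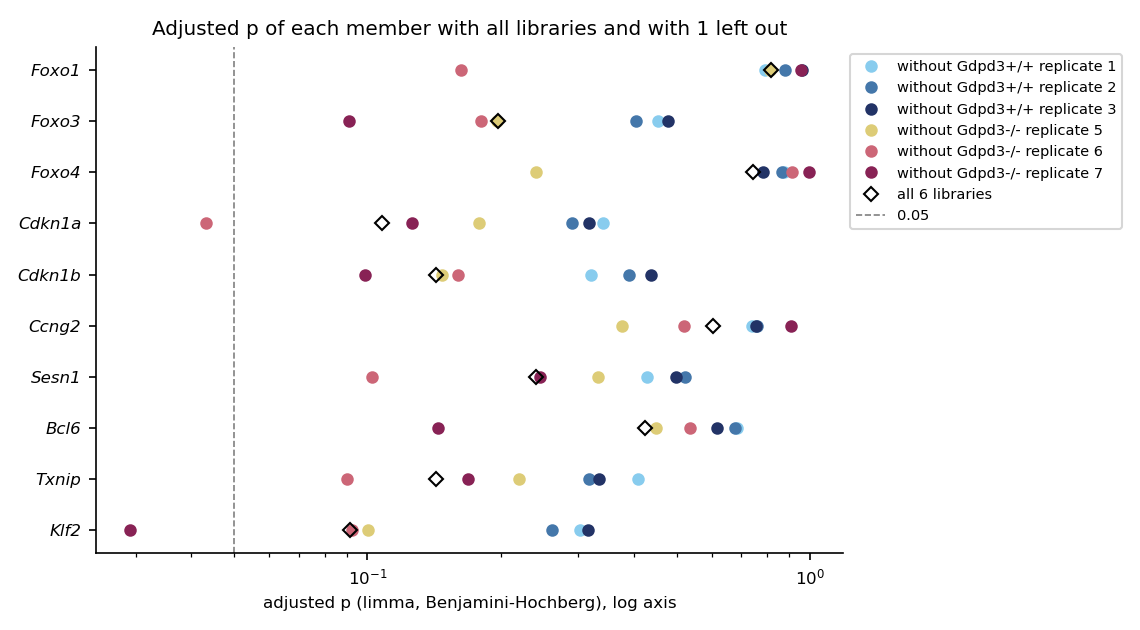
Adjusted p of each member (x axis, log scale; limma with Benjamini-Hochberg adjustment) with all 6 libraries (open diamonds) and with each library left out (points, coloured by library); the dashed line is 0.05. Only Cdkn1a without Gdpd3-/- replicate 6 and Klf2 without Gdpd3-/- replicate 7 lie below 0.05.

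These values carry limits. RNA levels of Foxo1, Foxo3 and Foxo4 give no reading of Foxo protein phosphorylation or of its place in the cell. With 3 libraries against 3, the exact permutation test cannot give a p below 0.1 for any member. The Gdpd3-/- libraries were shallower, more variable and all higher in skeletal muscle RNA, most of all replicates 5 and 6. All of them were also higher in Flt3 and Cd48 RNA and lower in neutrophil RNA. A member's difference therefore cannot be assigned to the stem cells alone. Reads of Foxo1 and Txnip that lie where a gene on the other strand overlaps cannot be assigned.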

How the data were processed

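The values are FPKM as deposited by the authors, who trimmed reads with Trimmomatic, Trim Galore and cutadapt 1.16, aligned them to mm9 with STAR 2.6.1a and counted them with featureCounts 1.6.1. The authors' own comparison by DESeq2 was not used. The genes followed and the lists were chosen with earlier results on these data known. FPKM times gene length gave whole multiples of a step in every library (tolerance 0.05 of a step). The step was read as 0.01 read, and depth and reads were recovered from it. A reading of the steps as covered bases was not tested. Genotypes were compared with limma 3.58.1 (R 4.3.3) on log2(FPKM + 0.1) with an intensity trend, over 24689 genes with a mean of at least 0.05 FPKM, with Benjamini-Hochberg adjustment at 0.05. The fit was also run on simulated data as a self-test, whose outcome is not reported here. Exact permutation tests used SciPy 1.17.1 over all 20 assignments of libraries to groups. Tables and figures were made with Python 3.11.15, pandas 2.3.3, NumPy 2.4.6 and Matplotlib 3.10.9. In each list, every called gene was named, with the genes of largest absolute log2 difference among those without overlap and with a mean of at least 1 FPKM, up to 3 genes, and from each marker list described the most abundant gene. Kit, Slamf1, Flt3, Cd8a, Itgam, Ly6g, Hbb-b1, Itga2b, Gadd45b, Ccnd2 and Pik3cd fall outside that rule and were named after their values were seen. Promoter sequences are from RefSeq (GRCm38.p6).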

Additional observations from a re-analysis of the deposited data

How the results depend on the processing

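No paired analysis was possible because the replicate numbers of the Gdpd3+/+ libraries (1, 2 and 3) and of the Gdpd3-/- libraries (5, 6 and 7) are not shared. The count of called genes, 422 in limma with Benjamini-Hochberg adjustment, was 225 with a pseudocount of 1, 213 with no filter on low values, 673 at a mean of at least 1 FPKM, 153 with no intensity trend and 240 with array weights. Of the called genes 64.0% were higher in Gdpd3-/-, against 31.9% after TMM scaling and 36.6% after quantile normalisation. Leaving out 1 library gave counts of 0 (Gdpd3+/+ replicate 1 left out) up to 3413 (Gdpd3-/- replicate 7 left out). Voom on recovered reads (906 genes) and the fit without Gdpd3-/- replicates 5 and 6 (2294 genes) were chosen after seeing the data; the latter assumes that the lone Gdpd3-/- library varies like the Gdpd3+/+ libraries. Of the members, 0 were called, 0 to 1 with 1 library left out, and 2 without Gdpd3-/- replicates 5 and 6.

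The members' median log2 difference, 0.43, was 0.34 with a pseudocount of 1, 0.23 after TMM scaling, 0.15 after quantile normalisation and 0.38 to 0.58 with 1 library left out. Foxo1, at 0.14, was -0.0633 after TMM scaling, -0.0380 after quantile normalisation and -0.13 to 0.52 with 1 library left out. Foxo4, at 0.32, was -0.26 after quantile normalisation and -0.0037 to 0.86 with 1 library left out. Called list genes, 5 of 150, numbered 0 to 29 with 1 library left out and 25 without Gdpd3-/- replicates 5 and 6. The cause of these differences was not tested.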
